A study of Homo sapiens with 8 samples.

Results

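The regions described here carry a peak of histone H3 lysine 27 acetylation (H3K27ac) in MP2_HDAC1_OE cells, have no overlapping peak in MP2_NTC cells, and lie away from the ends of annotated genes. Overlapping peaks (1 bp or more in common) of the 2 lists were joined, which gave 18678 merged regions. A region was kept when all of its peaks came from MP2_HDAC1_OE and when it did not touch a window at an end of any RefSeq gene of GRCh38, which ran 2 kb outward and 1 kb inward from both ends of the gene. These distal regions unique to MP2_HDAC1_OE numbered 2735. The regions were thus chosen by the presence of peaks in one list and their absence from the other, so counts of unique regions and peak signals are given as a description and were not tested.

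MIA PaCa-2, a human pancreatic carcinoma line, was the parent of both lines, which are stable lines made with CRISPR activation (CRISPRa), in which a guide RNA brings a transcriptional activator to a gene. MP2_HDAC1_OE carries a guide to *HDAC1* and MP2_NTC a non-targeting control guide, and both carry the activator components (lentiSAMv2 and the MS2-p65-HSF1 fusion). Each line had 2 samples precipitated with an antibody to H3K27ac and 2 control samples without it, and the labels do not say whether these came from separate cultures. The authors deposited 1 list of peaks per line, pooled over its H3K27ac samples and filtered for reproducibility (the optimal set of the irreproducible discovery rate, IDR). The lists hold no replicates and no read counts, so the depth is unknown, no test across cultures was possible, and an effect of *HDAC1* overexpression and any other difference between the lines cannot be told apart. A region without an MP2_NTC peak is one with no peak listed there, which does not show that the mark was absent.

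Acetylation of H3K27 marks active promoters and active enhancers, and away from promoters it is widely used to find candidate enhancers, sequences that raise the transcription of genes that may lie far away. HDAC1 is a histone deacetylase that removes acetyl groups from histone tails as part of corepressor complexes such as NuRD, CoREST and SIN3, and it is also found at active genes. In epithelial tumors, distal acetylation is cell type specific and tends to lie in clusters near genes of cell identity and signaling.

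The lists carried the marks of an epithelial carcinoma line in part. Of 6 epithelial genes checked, 3 (*KRT8*, *KRT18* and *KRT19*, all keratins) had a peak at a gene end in both lists, and *KRT7*, *EPCAM* and *CDH1* had none in either. The highest signals at *KRT8* and *KRT18* were identical (52.5 in MP2_HDAC1_OE and 68.9 in MP2_NTC). These genes may therefore have been counted on the same peaks and are not separate evidence. None of 6 acinar and 3 islet genes had such a peak. Among genes of other cell types, 1 of 5 immune genes (*CD68*) and 1 of 3 endothelial genes (*CDH5*) had a peak in both lists, and 0 of 4 fibroblast genes had a peak at an end in either.

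Regions unique to MP2_HDAC1_OE made up a larger share of the distal regions than of the regions at gene ends. Of 6636 distal regions, 2735 were unique to MP2_HDAC1_OE (41.2%, 95% Wilson interval 40.0% to 42.4%), 1724 were unique to MP2_NTC (26%, 24.9% to 27%) and 2177 were shared (32.8%, 31.7% to 33.9%). Among 12042 regions at gene ends, 2602 were unique to MP2_HDAC1_OE, which is 21.6% (20.9% to 22.4%), and 60.6% were shared. Over all merged regions the share unique to MP2_HDAC1_OE was 28.6%. Seen from the other side, 51.2% of all regions unique to MP2_HDAC1_OE were distal (49.9% to 52.6%), against 44.6% of those unique to MP2_NTC (43.1% to 46.2%) and 23% of shared regions. These and all later intervals cover counting error alone, and neighboring regions are not independent.

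**Figure D1:**
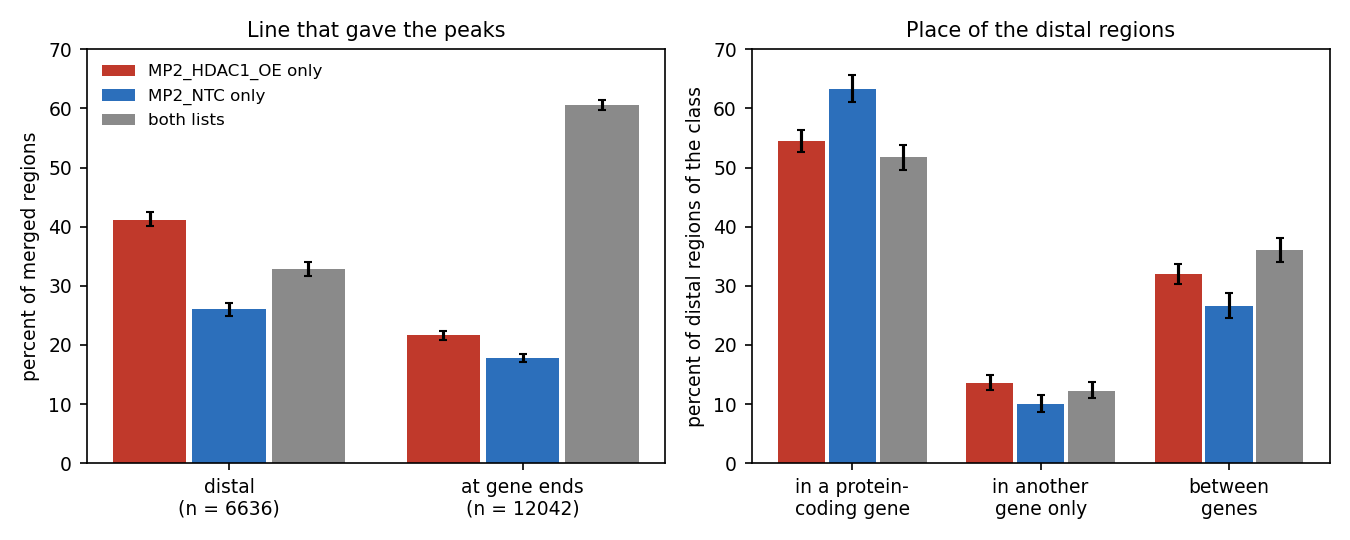
Left, percent of merged H3K27ac regions with peaks of MP2_HDAC1_OE only, MP2_NTC only or both lists, among distal regions and regions at gene ends. Right, percent of the distal regions of each class that lie in a protein-coding gene, in another kind of gene only, or between genes. Bars are shares and error bars are 95% Wilson intervals (counting error alone). The distal group is led by MP2_HDAC1_OE only (41.2%) and the gene ends by shared regions (60.6%), and the MP2_NTC-only class has the highest share in protein-coding genes (63.3%).

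The thresholds of the rule cut through close neighbors. The region chr10:125161205-125161460 near *CTBP2*, which encodes a transcriptional corepressor, was kept although only 1 bp separated it from an MP2_NTC peak and 3 bp from a window at a gene end. Its signal was 25.1. A region near *EMP1* (chr12:13203178-13204597), a membrane protein gene of epithelial cells, was counted as shared on an overlap of 3 bp. Near *LIF*, the gene of a cytokine of the interleukin-6 family, the region chr22:30248992-30249209 had no MP2_NTC peak but was left out because 2 bp of it lay in a window. In all, 8 kept regions lay within 10 bp of an MP2_NTC peak, and 38 distal regions were shared on an overlap of up to 100 bp, against a median overlap of 542 bp. At the windows, 37 kept regions lay within 100 bp of one, and 45 regions unique to MP2_HDAC1_OE were left out with up to 100 bp inside one.

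The distal regions unique to MP2_HDAC1_OE held 3863 of the 25045 peaks of the MP2_HDAC1_OE list and covered 2380.81 kb. Their median width was 820 bp, with a range from 205 to 2712 bp. Of them, 1855 (67.8%) consisted of 1 peak and 211 (7.71%) of 3 or more. The widest held 6 peaks and lay at chr5:103834537-103837248, with *NUDT12* as its nearest protein-coding gene. Regions unique to MP2_NTC had the same median width and 69.0% of them were single peaks, a difference of -1.20 percentage points (95% Newcombe interval -3.98 to 1.61).

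Most of these regions were weak peaks of their own list. The authors' signal is the value that the peak caller gives to each peak, and how it was scaled from list to list is unknown, so each region is given by the highest signal among its peaks and by the percentile of that signal among all peaks of its list. Signals ran from 11.1 to 104, with quartiles at 31.5, 39.9 and 48.3, while the whole MP2_HDAC1_OE list ran from 11 to 185 with a median of 46.5. The median percentile was 36.5, with quartiles at 23 and 53.6. Above the median of the list lay 815 regions (29.8%), above the 75th percentile 162 (5.92%), above the 90th percentile 28 (1.02%) and above the 95th percentile 8 (0.293%). Below the 25th percentile lay 778 (28.4%). Shared distal regions had a median percentile of 64.1 in the same list, and regions unique to MP2_NTC had a median of 33.3 in theirs. Of the shared distal regions, 76.2% held 3 or more peaks of both lists together, and the highest of several peaks tends to rank higher. The part of this in the higher percentile was not tested. The deposited score, which follows the reproducibility of a peak, was at its maximum of 1000 in 240 regions (8.78%) and in 33.8% of all peaks of the list. By region, it was at 1000 in 39% of shared distal regions in the same list. In the MP2_NTC list it was at 1000 in 10.6% of distal regions unique to MP2_NTC.

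**Figure D2:**
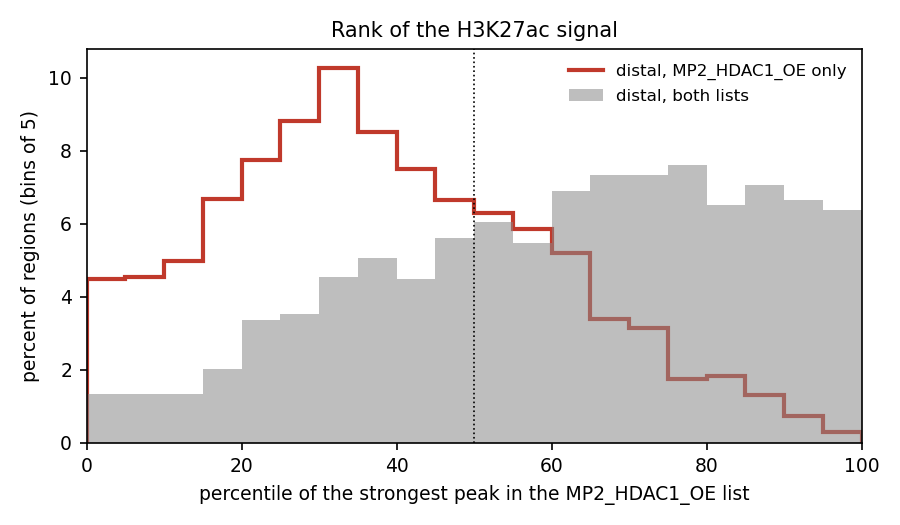
Percentile of the strongest peak of each distal region among all peaks of the MP2_HDAC1_OE list (x axis, bins of 5) against the percent of regions (y axis), for regions unique to MP2_HDAC1_OE (line) and shared regions (filled). The dotted line marks the median of the list. Regions unique to MP2_HDAC1_OE lie mostly to its left (median 36.5) and shared regions mostly to its right (median 64.1).

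Among regions with an MP2_HDAC1_OE peak, the share without an MP2_NTC peak fell with signal, and it was higher away from gene ends at each level of signal. When all such regions were ordered by signal and divided into 5 groups of equal size, 1256 of 1620 distal regions in the weakest group were unique (77.5%), against 61.1% at gene ends. In the next groups the shares were 63.8% and 41.8%, then 48.3% and 29.6%, then 25.7% and 15.5%. In the strongest group, with signals from 76.6, 50 of 430 distal regions were unique (11.6%), against 4.58% at gene ends. These shares describe the peaks that chose the regions and were not tested.

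The 12 strongest regions had signals from 89.99 to 104. The highest signal, 104, belonged to chr10:4676661-4677015, which lay inside the long noncoding RNA gene *MANCR*, 148107 bp from *AKR1E2*, an aldo-keto reductase gene and its nearest protein-coding gene. An MP2_NTC peak lay 670 bp from it. *WDR25*, which encodes a WD repeat protein, held the second, with a signal of 99.7 and an MP2_NTC peak at 604 bp. The third, chr19:1042381-1043129, lay in *ABCA7*, a lipid transporter gene, with a signal of 98.8 and a gap of 13602 bp to the nearest MP2_NTC peak. These were followed by regions in *TPRG1* (98.4), in *UQCC6*, an assembly factor of respiratory complex III (96.4), in *ADTRP*, a lipid hydrolase gene (96.0), in *LIPA*, the gene of lysosomal acid lipase (95.7), and in *CFDP1* (95.6). Lower in the order stood *RIN2*, an exchange factor of endosomal Rab proteins (94.5), *P3H2*, a collagen prolyl hydroxylase (94.1), *NUDT12*, a hydrolase of NAD-type nucleotides (91.0), and *IFNAR1*, a subunit of the type I interferon receptor (89.99). Only the regions in *ABCA7* and *RIN2* lay over 12500 bp from an MP2_NTC peak (15609 bp in *RIN2*), and 8 of the 12 lay within 1 kb of one. At the other end of the order, the lowest signal, 11.1, was that of chr12:121786025-121786844 in *RHOF*, a small GTPase gene.

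Many of these regions lay beside H3K27ac of the other line. The median gap to the nearest MP2_NTC peak was 4669 bp, with quartiles at 1041.5 and 21796 bp. Within 500 bp of such a peak lay 377 regions (13.8%), and within 1 kb 669 (24.5%). By comparison, 27.7% of distal regions unique to MP2_NTC lay within 1 kb of an MP2_HDAC1_OE peak, a difference of -3.27 points (-5.94 to -0.627). The MP2_HDAC1_OE list holds more peaks (25045 against 22569), and the part of this in the difference was not tested. Over 12500 bp away lay 903 regions (33.0%, against 32.2% of those unique to MP2_NTC, difference 0.824 points, -2.01 to 3.63), and over 100 kb away lay 219 (8.01%).

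Rank by signal was somewhat higher for regions within 1000 bp of an MP2_NTC peak than for those farther away, which was not tested. In successive classes of gap, the median percentile was 39.7 for gaps of up to 500 bp, 43.0 up to 1000 bp, 35.8 up to 5000 bp, 34.4 up to 12500 bp, 35.5 up to 100 kb and 36.1 beyond. The share in protein-coding genes rose and fell again over the same classes, from 41.6% to 47.6%, 54.1%, 64.3%, 60.5% and 49.8%.

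**Figure D3:**
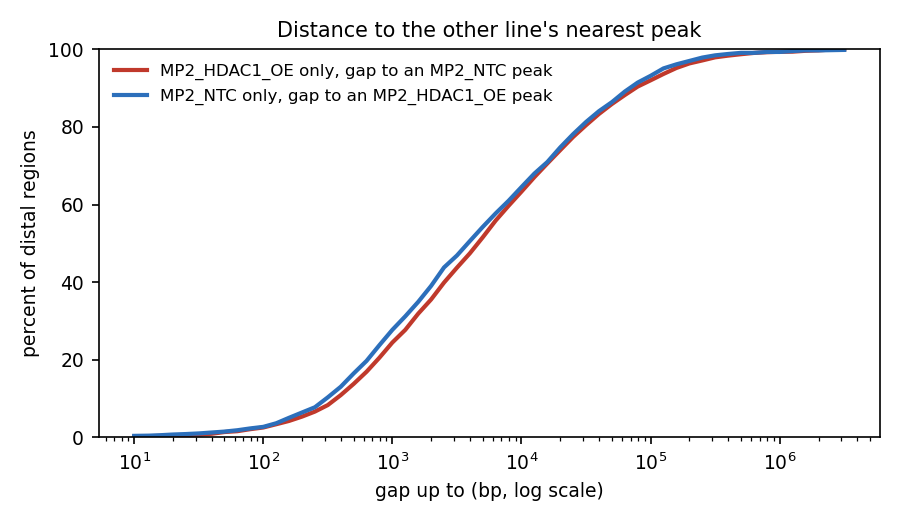
Percent of distal regions (y axis) whose gap to the nearest peak of the other line is at most the distance on the x axis (bp, log scale), for regions unique to MP2_HDAC1_OE and regions unique to MP2_NTC. The curves run close together, with medians of 4669 and 3782 bp.

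Fewer of the distal regions unique to MP2_HDAC1_OE than of those unique to MP2_NTC lay inside protein-coding genes. The numbers were 1491 of 2735 (54.5%) and 1092 of 1724 (63.3%), a difference of -8.83 points (95% Newcombe interval -11.7 to -5.87). With single peaks that had to overlap by 50% of both peaks, the shares were 52.8% and 57.9% and the difference was -5.08 points (-7.11 to -3.04). A further 370 regions (13.5%) lay only in a gene that is not protein-coding, against 10.0% (difference 3.49 points, 1.55 to 5.38). Between genes lay 874 (32.0%), against 26.6% (difference 5.33 points, 2.59 to 8.03). The share in protein-coding genes was lower than in MP2_NTC on 19 of 23 chromosomes. Without the 36 genes that had 20 or more distal regions of any class, the shares were 59.9% and 68.4%, a difference of -8.51 points (-11.6 to -5.37). Against shared distal regions, of which 51.7% lay in protein-coding genes, the difference was 2.79 points (-0.0154 to 5.60) and did not exceed counting error, while fewer lay between genes (-4.06 points, -6.73 to -1.39).

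The regions also lay farther from the ends of protein-coding genes. The median distance from the summit of the strongest peak to the nearer end of the nearest protein-coding gene was 24.8 kb, against 19.2 kb for regions unique to MP2_NTC and 20.3 kb for shared distal regions. The shares that follow use the nearest end of any protein-coding gene instead. Within 50 kb of one lay 65.0%, with a difference of -6.34 points to MP2_NTC (-9.10 to -3.53) and -5.36 points to shared regions (-7.97 to -2.73). Over 100 kb away lay 572 regions (20.9%), 4.96 points above MP2_NTC (2.63 to 7.24), whereas the difference to shared regions was 2.03 points (-0.220 to 4.26). The region nearest to an end of its own nearest gene had its summit 1038 bp from an end of *LURAP1L* (chr9:12776024-12776259). The farthest lay 1434.69 kb from *CADM2*, a cell adhesion molecule gene (chr3:83523887-83524933), and 78 regions (2.85%) were over 500 kb from any protein-coding gene end.

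Each region was given to the protein-coding gene that holds its summit or, failing that, to the gene with the nearest end. This is proximity and not a shown target, and long genes and genes beside large gene-free stretches collect more regions. In all, 1392 of 20056 protein-coding genes (6.94%) were the nearest gene of at least 1 of these regions, against 5.69% for regions unique to MP2_NTC. The share rose with gene length, from 4.13% of genes under 20 kb to 8.30% of genes of 20 to 100 kb and 11.4% of longer genes. Of the 1392 genes, 961 had 1 region and 101 had 5 or more, and those 101 held 34.3% of the regions. A distal region unique to MP2_NTC lay nearest to 454 of the 1392 genes (32.6%), which is 39.8% of the 1141 genes with such a region. For 685 genes (49.2%), the regions unique to MP2_HDAC1_OE were the only distal regions of any class. The matching share for genes of the other classes was not computed, and most of the 1392 genes had only 1 region. This count is therefore not read as a trait of these genes.

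The largest collection lay at *RAD51B*. This gene of DNA repair by homologous recombination had 28 regions, all within its 863.318 kb body, with signals from 15.3 to 58.9 and a median of 39.6. It also had 6 regions unique to MP2_NTC and 18 shared distal regions. *MYC*, the growth-promoting transcription factor gene, had 22, of which 16 lay in the neighboring noncoding RNA gene *PVT1*, with signals from 12.4 to 68.6, beside 11 unique to MP2_NTC and 22 shared. *NUDT12* had 21, all outside the gene and up to 953.235 kb from it, beside 14 and 28. *TOX2*, which encodes an HMG-box transcription factor, had 20, of which 18 lay inside the gene, beside 9 and 8, and its median signal of 47.9 was the highest among the 12 genes with the most regions.

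Next came 4 genes with 19 regions each. *CADM2* had 13 regions unique to MP2_NTC and 5 shared, and none of its 19 lay nearer than 849.164 kb. *SEMA3A*, the gene of a secreted repulsive guidance factor, had 8 of its 19 inside the gene and only 2 unique to MP2_NTC and 6 shared beside them. *PHLDA1*, a pleckstrin homology-like gene linked to apoptosis, had 11 unique to MP2_NTC and 16 shared. *BCAS1*, a gene amplified in breast carcinoma, had 7 and 11. *TPRG1* had 18 beside 8 and 30, *PLK2*, a polo-like kinase gene of the stress response, 18 beside 10 and 19, and *AKR1E2* 18 beside 2 and 9. *ERRFI1*, which encodes a feedback inhibitor of the EGF receptor, had 17 beside 6 and 16, and 12 of the 17 lay in its divergent transcript *ERRFI1-DT*. Thus *SEMA3A* and *AKR1E2* had the fewest regions unique to MP2_NTC of these 12 genes. Neither had a peak of either list at its ends, and nor did *CADM2*, with its 13 regions unique to MP2_NTC. *ACTBL2* also had 17 regions.

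Some genes had several of these regions and none unique to MP2_NTC, a comparison made after the values were seen. Of the 101 genes with 5 or more regions, 10 were of this kind. They included *LIF* with 6 regions beside 1 shared, and *LMNB1*, the gene of the nuclear envelope protein lamin B1, with 5 and no other distal region. The absence is by nearest gene alone. A stretch with regions of *LIF* (chr22:30193685-30236910) also held 2 regions unique to MP2_NTC, which lay nearest to another gene. The *LMNB1* regions had signals of 41.6, 40.5, 49.6, 38.6 and 45.0, and each lay at least 15780 bp from an MP2_NTC peak. *DENND5B*, a gene for a regulator of Rab proteins, also had 5 and no other distal region, with signals from 26.7 to 65.8 and each at least 69878 bp from an MP2_NTC peak.

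At the ends of the nearest gene, 49.7% of the regions had a shared peak, 8.56% only a region unique to MP2_HDAC1_OE, 5.19% only a region unique to MP2_NTC, 2.89% both kinds of unique region, and 33.7% (921 regions) no peak in either list. For distal regions unique to MP2_NTC the corresponding shares were 53.9%, 7.60%, 5.97%, 1.86% and 30.6%. The Wilson intervals of the classes did not overlap for ends with a shared peak (47.82% to 51.56% and 51.59% to 56.29%), where they missed each other narrowly. They overlapped for ends with only a region unique to MP2_HDAC1_OE (7.56% to 9.66% and 6.44% to 8.95%) and for ends with only a region unique to MP2_NTC (4.42% to 6.09% and 4.95% to 7.19%).

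At *HDAC1* itself, the gene activated in MP2_HDAC1_OE, there was 1 distal region. It lay inside the gene at chr1:32297810-32298874, 6137 bp from the nearer end, and held 2 peaks. Its signal of 35.8 was above 28.6% of the list, and the nearest MP2_NTC peak lay 5376 bp away. At the ends of *HDAC1* lay 2 regions unique to MP2_NTC, 1 shared region and 0 unique to MP2_HDAC1_OE. Peaks do not measure expression, so this is no check of the overexpression.

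Genes were also counted in 17 lists of pathways, families and markers that fit the tissue and the manipulation. The lists were chosen with earlier results of these data known. Together, 204 regions lay nearest to a listed gene. The share of genes with at least 1 region was above 6.94% in 16 of the 17 lists, but regions unique to MP2_NTC were above their own background of 5.69% in 13 of the 17, and 12 lists have a longer median gene than all protein-coding genes (24.1 kb). The counts were not tested against chance.

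Among adhesion and matrix genes, 13 of 53 collagens, laminins and integrins (24.5%) had 25 regions, against 6 genes and 12 regions for MP2_NTC. *COL5A2*, a fibrillar collagen gene, had 6, all inside the gene, with signals of 74.9, 44.9, 30.8, 31.8, 70.8 and 37.9. It also had 4 regions unique to MP2_NTC and 4 shared. *ITGB1*, the beta-1 integrin subunit, had 4 with signals of 44.8, 76.3, 24.6 and 60.3, beside 2 unique to MP2_NTC. *ITGA3* (3), *LAMA2* (2) and *COL1A2* (2) followed. The *COL1A2* regions, with signals of 38.7 and 43.7, lay 208341 and 134171 bp from an MP2_NTC peak, and this gene of type I collagen had no other distal region.

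Of 30 genes of the epithelial-mesenchymal transition (EMT), 6 (20.0%) had 10 regions, against 5 genes and 7 regions unique to MP2_NTC. *VIM*, the mesenchymal filament gene, had 2 (signals 49.1 and 47.2), 811 and 24473 bp from an MP2_NTC peak, and no other distal region. Its ends held 1 region of each class. *CD44*, a hyaluronan receptor gene, had 2 inside the gene (46.7 and 36.3), 24706 and 59866 bp from an MP2_NTC peak, but also had 2 unique to MP2_NTC. *LOXL2*, a collagen crosslinking enzyme, had 2 (17.9 and 59.7) and *NT5E*, the gene of the ectonucleotidase CD73, 2 (26.8 and 29.0). Of 13 epithelial genes, 4 had 1 region each: *CLDN4* and *OCLN*, both tight junction genes (53.5 and 52.6), and the keratin genes *KRT8* (46.7) and *KRT19* (35.2), against 1 gene for MP2_NTC. Both epithelial and mesenchymal genes were therefore among the nearest genes.

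GTPase genes gave a count that rests on one gene. Of 34 small GTPase genes, 6 (17.6%) had 19 regions, and 14 of the 19 lay nearest to *RAP2B*, a Ras-related GTPase gene. Its 14 regions spanned 553.904 kb with signals from 11.4 to 68.6, none lay within 1 kb of an MP2_NTC peak, and only 1 region unique to MP2_NTC and 2 shared lay nearest to the gene. *RHOU*, *RHOC* and *RHOB*, all small GTPase genes, had 1 each (50.9, 47.1 and 46.2). Of 52 listed activating and exchange factors of GTPases, 5 had 9 regions, against 8 genes and 10 regions for MP2_NTC. This list is partial, and the order depends on it. Among all 80 genes with an ARHGAP, ARHGEF, DOCK or PLEKHG symbol, counted after the values were seen, 16 had 30 regions against 9 with 13 for MP2_NTC. On the list, *ARHGAP5* had 4 of the 9, *ARHGAP29* 2, and *ARHGAP23* and *ARHGAP18* 1 each, all genes of GTPase-activating proteins.

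Guidance genes were likewise led by one member. Of 31 semaphorins, plexins and neuropilins, 6 (19.4%) had 28 regions, 19 of them at *SEMA3A*, against 6 regions unique to MP2_NTC at 5 genes. *SEMA3C*, another secreted semaphorin gene, had 3 (52.5, 38.6 and 38.9), all at least 20495 bp from an MP2_NTC peak. *PLXND1*, a semaphorin receptor gene, had 3 (16.3, 39.6 and 51.4). Of 22 ephrin and Eph receptor genes, 3 had 5 regions and 3 had 3 regions unique to MP2_NTC, and *EPHA2* had 3 inside the gene (49.3, 38.6 and 42.2). *EFNA5*, an ephrin gene, and *EPHA4* had 1 each.

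Of the signaling lists, receptor kinases and EGF-family ligands had 25 regions at 7 of 26 genes (26.9%), against 11 at 5 genes for MP2_NTC. *BTC*, the gene of the EGF receptor ligand betacellulin, had 15 of the 25, with signals from 14.5 to 64.9, all between 72.385 and 129.043 kb from the gene. *AREG*, the neighboring ligand gene of amphiregulin, had 4 (23.02, 36.0, 42.6 and 26.9), 3 of which lay within 1 kb of an MP2_NTC peak, and *IGF1R*, the IGF-1 receptor gene, had 2. In the YAP, TAZ and TEAD list, 7 of 26 genes (26.9%) had 22 regions. *WWTR1*, which encodes TAZ, a coactivator of the Hippo pathway, had 13 inside the gene (15.6 to 83.0) beside 5 unique to MP2_NTC and 3 shared, and *NF2*, an upstream inhibitor of that pathway, had 4 (39.8, 37.2, 22.6 and 36.8) and none unique to MP2_NTC. *AMOTL2*, an angiomotin family gene, had 1 region (53.6) against 5 unique to MP2_NTC, and *VGLL4*, a TEAD cofactor gene, 1 (35.3) against 1.

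The TGF-beta and SMAD list went the other way in genes, with 9 of 36 genes (25%) and 25 regions against 12 genes and 18 regions for MP2_NTC. *SMURF2*, a ubiquitin ligase of SMAD proteins and TGF-beta receptors, had 7 (16.8 to 41.2), *ID1*, a target gene of BMP signals, 4, *TGFBR3*, a coreceptor, 3, and *LTBP2*, a latent TGF-beta binding family member, 3. *SMAD3*, the signal transducer, *TGIF1*, a SMAD corepressor (52.5 and 66.7), and *ACVR2A*, an activin receptor, had 2 each.

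Among transcription factors, 3 of 18 AP-1 genes (16.7%) had 7 regions, against 2 genes with 2 for MP2_NTC. *JUN* had 4, with signals of 29.4, 42.9, 45.1 and 35.6, 2 of them within 1 kb of an MP2_NTC peak, *FOSL2* had 2 (26.5 and 43.1) and *FOS* 1 (38.0). Of 30 transcription factors of the pancreatic lineage, 3 (10.0%) had 5 regions and 0 had a region unique to MP2_NTC. *KLF4*, a regulator of epithelial differentiation, had 3 (41.3, 46.9 and 36.8), all in genes that are not protein-coding, at least 147.918 kb from it and at least 146471 bp from an MP2_NTC peak. *SOX9*, a ductal regulator, had 1 (40.3) that lay 213029 bp from the gene, and *PAX6*, an islet regulator, 1 inside the gene (40.0), 278192 bp from an MP2_NTC peak.

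Deacetylases and corepressors had 10 regions at 5 of 32 genes (15.6%), fewer genes than for MP2_NTC (7 genes and 10 regions). *HDAC9*, a class IIa deacetylase gene, had 4 inside the gene (43.6, 36.4, 40.2 and 53.0), beside 3 unique to MP2_NTC, *GATAD2A*, a subunit of NuRD, had 3 (31.7, 40.3 and 45.6), and *RCOR2*, a CoREST family gene, 1 (31.6). Of 38 listed ABC transporters, 5 (13.2%) had 8 regions, against 2 genes with 3. The list is not the whole family. By symbol there were 45 ABC genes, of which 6 had 15 regions against 2 with 3, and *ABCA8*, which is not on the list, had 7 of the 15 and none unique to MP2_NTC. *ABCC2*, a multidrug efflux transporter gene, had 3 (35.5, 49.5 and 40.6) and no other distal region, *ABCA10* had 2, and *ABCA7* and the peroxisomal *ABCD3* (74.5) 1 each. Of 17 BCL2 family genes, 2 had 3 regions, with *BCL2L1*, the antiapoptotic gene of BCL-XL, at 56.6 and 43.5 and *BBC3*, the proapoptotic gene of PUMA, at 34.7, against 1 gene with 1. None of 9 acinar and islet genes and 1 of 12 immune, endothelial and fibroblast genes (*PDGFRB*, a receptor of fibroblasts and pericytes, 1 region at 47.5) had a region. With windows at protein-coding genes only, both lists had 2 regions.

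The regions often lay in stretches with other distal regions. When distal regions of any class within 12500 bp of each other were joined, 951 (34.8%) stood alone and 295 (10.8%) lay in stretches that held no other class. A further 434 (15.9%) lay with shared regions, 319 (11.7%) with regions unique to MP2_NTC and 736 (26.9%) with both. Stretches with 5 or more regions unique to MP2_HDAC1_OE numbered 53 and held 391 of them (14.3%), whereas 13 stretches had 5 or more unique to MP2_NTC. Such counts rise with the size of the class (2735 and 1724 distal regions). The matching share for MP2_NTC was not computed, so the counts are not read as a difference in clustering. Only 2 of the 53 had no other class. These lay in *CUBN*, the gene of the endocytic receptor cubilin (5 regions in 6.42 kb, signals from 28.1 to 59.5), and in *LMNB1* (5 regions in 23.1 kb).

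The 5 stretches with the most such regions held both classes of unique regions and shared regions. The first lay over *TOX2* (chr20:43910699-43995165, 84.467 kb) with 19 regions unique to MP2_HDAC1_OE, 4 unique to MP2_NTC and 5 shared, and signals of the 19 from 20.9 to 81.3. The second lay at *BTC* (chr4:74615306-74672783, 57.478 kb) with 15, 5 and 5. The third lay at *ERRFI1* (chr1:8070338-8142002, 71.665 kb) with 14, 5 and 11. The fourth lay at chrX:12939918-13032325 (92.408 kb), where *TLR8*, a receptor of single-stranded RNA, *TMSB4X*, an actin-sequestering protein gene, and *FAM9C* were the nearest genes, with 14, 6 and 5. The fifth lay 268.799 kb from *NUDT12* (chr5:103831178-103944429, 113.252 kb) with 14, 9 and 21. The share unique to MP2_HDAC1_OE thus differed between stretches, and in the fifth the shared regions were the most frequent. One other stretch near *SPRY4*, a feedback inhibitor of receptor kinase signals, and *FGF1*, a fibroblast growth factor gene, had 11 unique to MP2_HDAC1_OE, 13 shared and 0 unique to MP2_NTC (chr5:142384329-142476464), and was singled out after the values were seen.

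**Figure D4:**
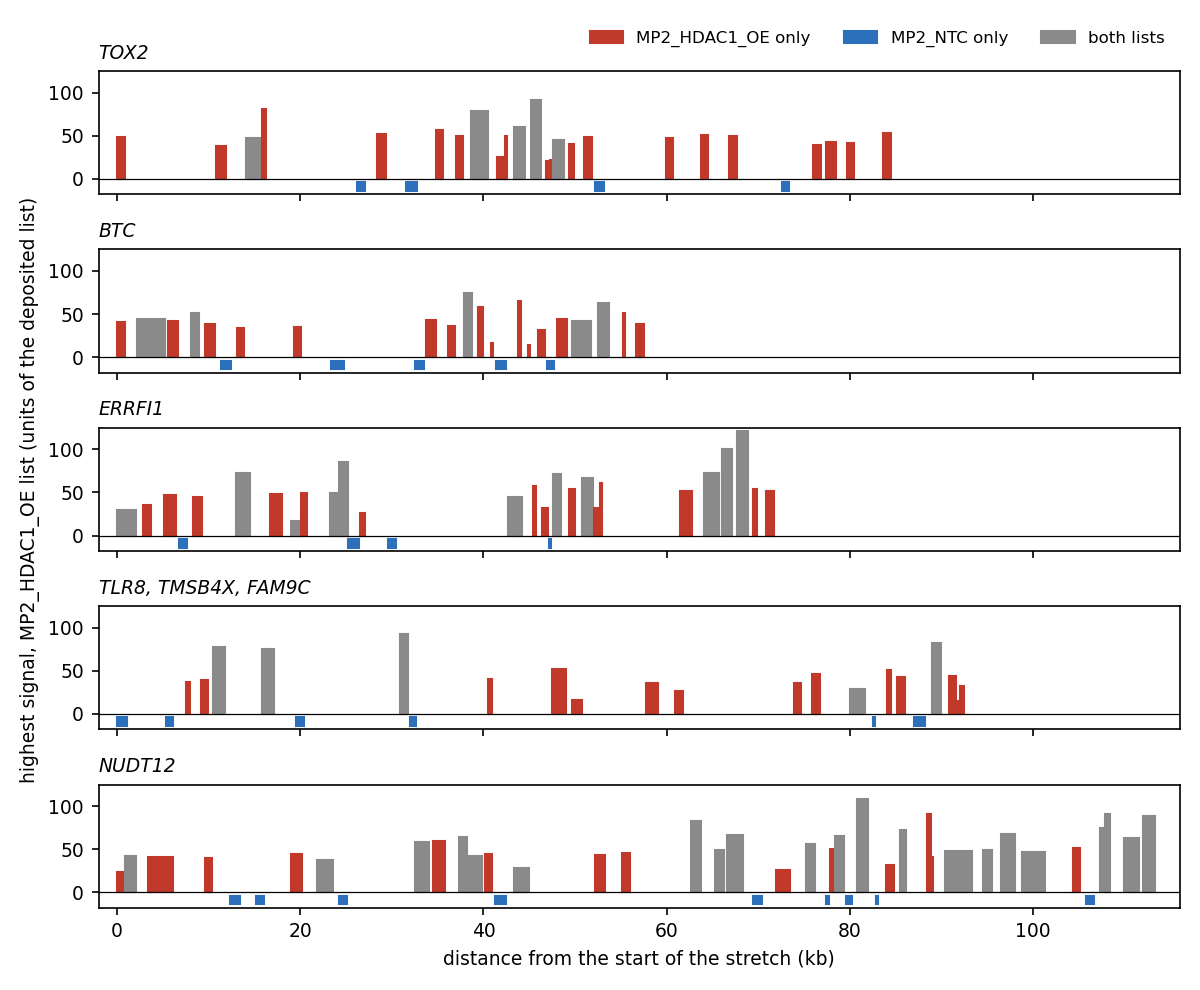
The 5 stretches of distal regions with the most regions unique to MP2_HDAC1_OE, each named by the nearest protein-coding genes. The x axis is the distance from the start of the stretch in kb, and bars above 0 give the highest MP2_HDAC1_OE signal of each region unique to that line (red) or shared (grey). Blue blocks below 0 mark the position of regions unique to MP2_NTC and have no height. In all 5 stretches the unique regions of both lines are interspersed with shared regions, from 14 to 19 red bars in each.

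The regions were spread over all 23 chromosomes compared, the autosomes and X, and outnumbered the regions unique to MP2_NTC on each. Their share of the distal regions ran from 34.1% on chromosome 5 (30.1% to 38.3%, 175 of 513) to 53.7% on chromosome 11 (46.8% to 60.4%, 109 of 203), against 41.2% in all. The Wilson interval included 41.2% on 20 of 23 chromosomes, the exceptions being chromosomes 4 (49.3%, 41.4% to 57.3%), 5 and 11. For each region unique to MP2_NTC there were 1.12 unique to MP2_HDAC1_OE on chromosome 5 and 2.73 on chromosome 11. Chromosome 11 also had the highest share at gene ends (29.1%, against 21.6% in all). Copy number was not analysed here, and its part in these shares was not tested.

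**Figure D5:**
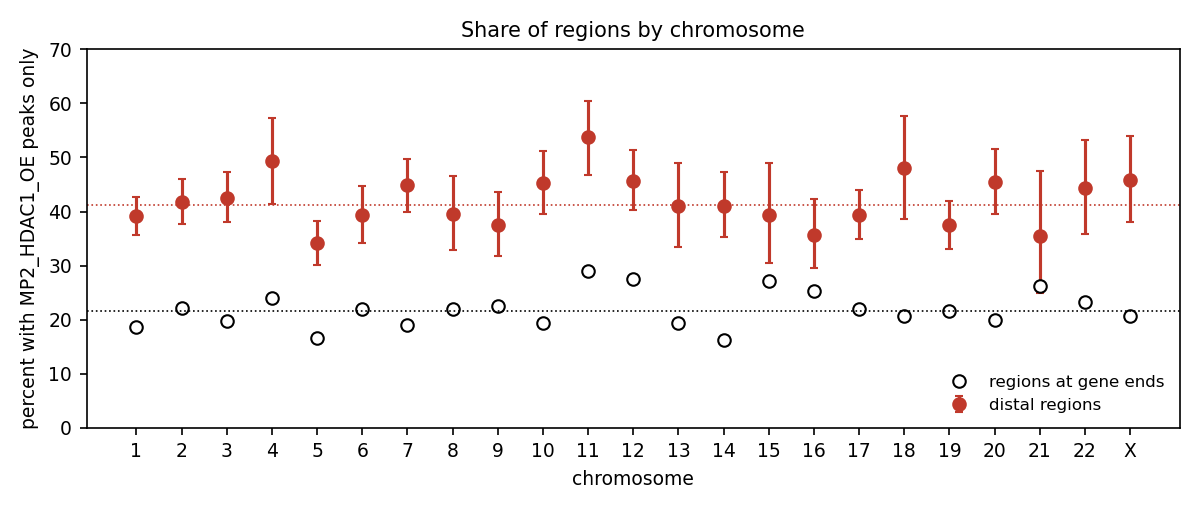
Percent of H3K27ac regions unique to MP2_HDAC1_OE on each chromosome, for distal regions (filled points, bars are 95% Wilson intervals) and regions at gene ends (open points). Dotted lines mark the shares over all chromosomes, 41.2% and 21.6%. Chromosome 11 is highest on both measures, and chromosome 5 is the lowest for distal regions.

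On a finer scale, 273 of 295 windows of 10 Mb with a distal region held at least 1 region unique to MP2_HDAC1_OE, and the 49 windows with the most held at least as many as all the others together. Among the 123 windows with 20 or more distal regions the median share was 41.7%. The highest was 20 of 28 (71.4%) at 30 to 40 Mb of chromosome 11, where *PAX6* and *CD44* had only 1 and 2 of the 20. Next were 23 of 33 (69.7%) at 80 to 90 Mb of chromosome 7, where *SEMA3A*, *SEMA3C* and *SEMA3D* lie. Then came 26 of 39 (66.7%) at 150 to 160 Mb of chromosome 3, where *RAP2B* lies. The lowest was 3 of 27 (11.1%) at 20 to 30 Mb of chromosome 6.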

How the data were processed

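H3K27ac ChIP-sequencing was performed by the authors with ENCODE protocols in 2 MP2_HDAC1_OE and 2 MP2_NTC samples, with 2 control samples per line. The submitters' processing notes name BWA 0.7.12, Picard 1.88 and hg38. The peak caller is not given in the sources used here. The deposited lists, 1 per line, are IDR-optimal peaks pooled over the samples, with a signal per peak and a score that were used as deposited. The signal deposited by the authors was ranked within its list alone, and the score was only described. Deposited p-value and q-value columns were not used. Read coverage, HDAC1 binding and gene expression were not analysed here. The number of columns with values of other samples was 0.

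Peaks were merged at 1 bp. Gene ends came from RefSeq (GRCh38.p14, 59792 genes, 20056 protein-coding). This table has no strand, so windows covered both ends, the 3′ end included. Distances run from the summit of the strongest peak. Stretches joined distal regions within 12500 bp. Shares have 95% Wilson intervals and differences 95% Newcombe intervals. No p-value was computed, since regions are not replicates.

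The regions and the gene lists were chosen with earlier results of these data known. Named were the genes of the 12 strongest regions, the 12 genes with the most regions, genes of the 5 largest stretches, list genes with 2 or more regions (in lists with fewer than 3 such genes, also those with 1 region, up to 4 genes in all by signal), *HDAC1* and the regions at the edges of the rule. Genes outside this rule are *ACTBL2*, *ABCA8*, *LMNB1*, *DENND5B*, *CUBN*, *SPRY4*, *FGF1* and *SEMA3D*. Alternatives were other overlaps and gaps, the strongest 75% of peaks, equal numbers of peaks, other windows, other gene assignments and other stretch gaps. On simulated data, 1800 of 1800 regions, 1200 of 1200 places and 600 of 600 genes came out as made. Python 3.11.15, numpy 2.4.6, pandas 2.3.3, scipy 1.17.1, statsmodels 0.14.6 and matplotlib 3.10.9 were used.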

Additional observations from a re-analysis of the deposited data

How the results depend on the processing

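Of 144 values recomputed for 39 results under 10 settings, 122 moved by no more than the limit set and 22 moved by more. The limit was 1.5 times for counts and counting error for shares and medians. Among the 57 values for the main results 17 moved by more, against 5 of 87 for counts at single lists or genes. Distal regions unique to MP2_HDAC1_OE outnumbered those unique to MP2_NTC, and fewer of them lay in protein-coding genes, in 8 of 8 settings compared. Single peaks with an overlap of 50% of both peaks gave 5576 and 3862 unique distal peaks, a share of 46.6% for MP2_HDAC1_OE, a median percentile of 32.8, and 52.8% and 57.9% of them in genes. The difference in genes was then -5.08 points, and from -6.96 to -9.71 in the other settings. When a gap of up to 500 bp also joined the lists, the share was 38.7%, and 57.2% of regions unique to MP2_HDAC1_OE and 67.0% of those unique to MP2_NTC lay in genes. With windows at protein-coding genes only, these 3 values were 38.9%, 52.0% and 59.99%. When the MP2_HDAC1_OE list was cut to its strongest 22569 peaks, the number in the uncut MP2_NTC list, the share was 39.2% and the median percentile 38.4. With the strongest 75% of peaks the percentile was 46.3, and 59.7% of the regions unique to MP2_NTC lay in genes. Both percentiles are ranks in the uncut MP2_HDAC1_OE list, so dropping its weakest peaks raises them by construction. Ranks within the cut lists were not computed. The share of regions in stretches with another distal region, 65.2%, became 55.2% when stretches were joined over 5 kb and 72.8% over 25 kb. Among lists, the strongest 75% of peaks left 6 regions at EMT genes and 5 at ABC transporters, and windows at protein-coding genes only gave 15 at AP-1 genes, 2 at acinar and islet genes and 2 at immune, endothelial and fibroblast genes. Beyond what each setting does by construction, the cause of these moves was not tested. The share on chromosome 11 ran from 48.9% to 56.4% in 7 settings chosen after seeing the data. No paired analysis was possible because the deposited lists are pooled over samples and no result comes from a test, and for the same reason no replicate could be left out. The lists hold no counts, so depth limits which regions have a peak by an unknown amount.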
